A study of Saccharomyces cerevisiae with 7 samples.

Results

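Peaks of the histone demethylase Rph1 over TPI1, TDH3, ENO2 and CDC19, which encode enzymes of lower glycolysis in budding yeast, are described here. They are 4 of the 731 peaks in a table of chromatin immunoprecipitation sequencing (ChIP-seq) signal from Saccharomyces cerevisiae. The peaks were picked by position, and they had been noted beforehand because their signal tended to be higher in the ppm1Δ libraries than in wild type. The values of that comparison therefore chose the peaks, and they are given below as a description with no test.

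All 7 libraries came from CEN.PK cells, mating type a, whose RPH1 gene carried an HA epitope tag with the HYG marker, and the HA tag was the target of the immunoprecipitation. Wild type after 1 h in SL, a synthetic lactate medium entered from YPL, had 2 libraries. The ppm1::kanMX deletion (ppm1Δ) in YPL, a medium of yeast extract, peptone and 2% lactate, had 2 libraries. Cells whose tagged Rph1 carried the substitution S412A, alanine for serine, had 1 library in YPL. Wild type in YPL had 2 libraries, taken in log phase. An OD600 near 1.0 at harvest is given for all 7 libraries. The recipe of SL is worded differently for its 2 libraries, lactate being named for the second only, and they were taken as 1 medium. Neither an untagged strain nor an input library was used here, and the labels do not say whether replicates were separate cultures.

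Glycolysis splits a hexose into triose phosphates and turns them into pyruvate, with ATP made in its lower part. Yeast holds some of its most abundant enzymes in that lower part, and on a carbon source such as lactate several of them also work in reverse to make sugar phosphates. TPI1 encodes triose phosphate isomerase, which interconverts the triose phosphates. TDH3 encodes the main isozyme of glyceraldehyde-3-phosphate dehydrogenase, ENO2 encodes an enolase, and CDC19 encodes the main pyruvate kinase, which acts in the glycolytic direction. Rph1 is a JmjC-domain enzyme that removes methyl groups from histone H3 and binds DNA through zinc fingers. Ppm1 methylates the catalytic subunit of the phosphatase PP2A, and the series title links the methylation of PP2A to that of histones.

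Positions are those of the sacCer2 build. The TPI1 peak, chrIV_555197_557203 in the table, lay on chromosome IV from 555197 to 557203, a width of 2007 bp. The TDH3 peak, chrVII_882015_884787, lay on VII from 882015 to 884787 (2773 bp). The ENO2 peak, chrVIII_450668_453770, lay on VIII from 450668 to 453770 (3103 bp), and the CDC19 peak, chrI_70512_73836, lay on I from 70512 to 73836 (3325 bp). Widths over all 731 peaks had a median of 2528 bp, so the TPI1 peak was narrower than the median and the other 3 were wider. No annotation of sacCer2 was used, so the position of each peak within its gene, promoter or neighbouring gene is not given. In the RefSeq gene table of build R64 the protein-coding neighbours are VMS1 and DET1 for TPI1 (YDR050C), HIP1 and PDX1 for TDH3 (YGR192C), YHR173C and CTR2 for ENO2 (YHR174W), and CYC3 and YAL037C-A for CDC19 (YAL038W). Each peak can hold reads from such neighbours. TDH3 also has the close copies TDH1 and TDH2, and ENO2 the close copy ENO1. No source used here tells how reads with several possible places were handled, so the values of the TDH3 and ENO2 peaks are uncertain to that extent.

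Signal is read here as the reads in a peak scaled to a library of 22000000, and levels of different peaks are compared as signal per kb of peak width. Under that reading the 4 peaks held 2646 to 17815 reads in a library, a counting error of 0.749% to 1.94%, which covers the counting of reads only. Library totals were 13808893 to 34820208 reads. The share of reads in all 731 peaks was 24.1% and 19.7% in the SL libraries, 22.6% and 20.0% in the ppm1Δ libraries, 18.6% in S412A, and 21.7% and 22.9% in wild-type YPL. A difference in that share can move many peaks of a library together, and values recentred on the median peak of each library are therefore given beside each comparison below.

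The TDH3 peak was the tallest of the 4 in all 7 libraries. It held 6865 and 4494 per kb in wild type in SL, 5077 and 4059 in ppm1Δ, 2990 in S412A, and 3132 and 3504 in wild type in YPL. The library median over all peaks was 1792 to 2235 per kb, so this peak stood above the typical peak in every library, by a ratio of 1.48 to 3.18. The ENO2 peak held 3712 and 2695 per kb in SL, 2430 and 2158 in ppm1Δ, 1776 in S412A, and 1734 and 1823 in wild-type YPL. Its YPL values in wild type lay below the median peak, at ratios of 0.821 and 0.827, and its SL values lay above it, at 1.72 and 1.48.

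The TPI1 peak held 3478 and 2511 per kb in SL, 2698 and 2425 in ppm1Δ, 2072 in S412A, and 1878 and 2216 in wild-type YPL. The CDC19 peak held 2763 and 2155 per kb in SL, 2465 and 2059 in ppm1Δ, 1753 in S412A, and 1780 and 1726 in wild-type YPL. At all 4 peaks the SL and ppm1Δ libraries were above both wild-type YPL libraries. The S412A library lay between the wild-type YPL libraries at ENO2, TPI1 and CDC19 and below both at TDH3. The first SL library exceeded the second by 1.28-fold at CDC19 to 1.53-fold at TDH3, a wider gap than the 1.03-fold to 1.18-fold between the wild-type YPL libraries.

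**Figure D1:**
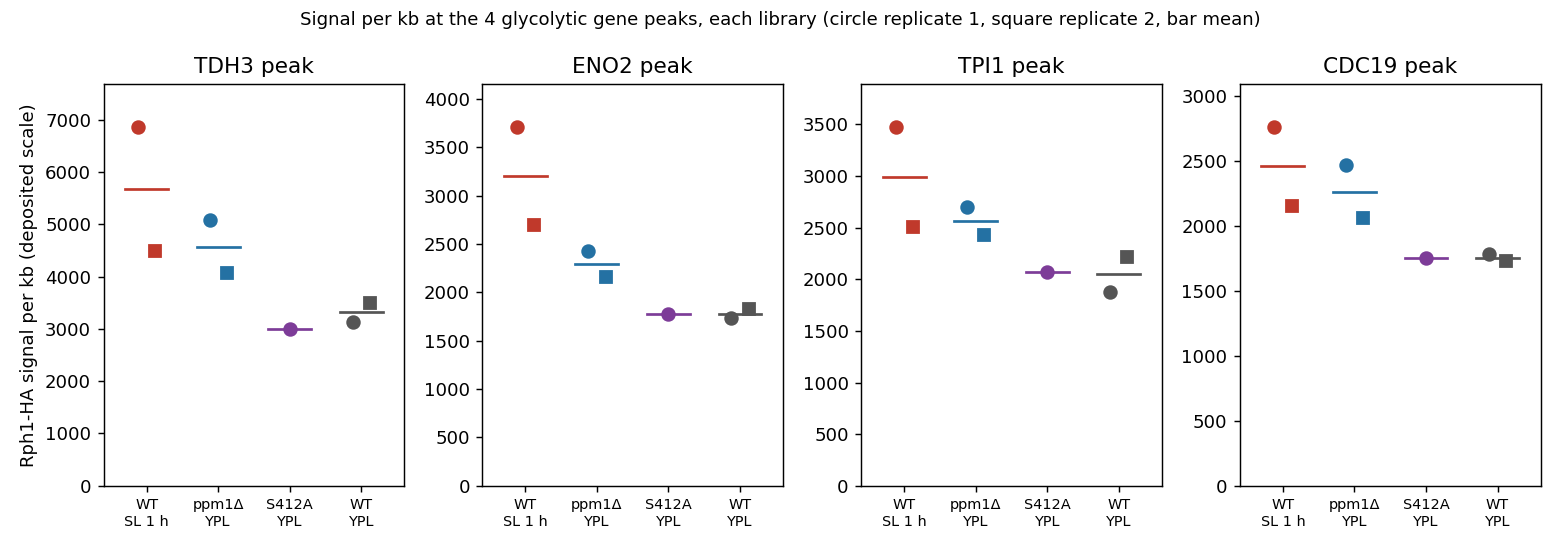
Signal per kb of peak width, on the deposited scale, at each of the 4 peaks in every library. Circles are replicate 1, squares replicate 2 and bars group means; S412A has 1 library. At each peak the SL and ppm1Δ libraries sit above both wild-type YPL libraries.

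In wild type in YPL the TDH3 peak averaged 3318 ± 263 per kb (SD, n = 2), followed by TPI1 at 2047 ± 239, ENO2 at 1778 ± 62.5 and CDC19 at 1753 ± 37.9. TDH3 did not overlap with any of the other 3, and the ENO2 and CDC19 ranges overlapped. The TPI1 libraries lay above both ENO2 and CDC19 ranges, by 1878 against 1823 per kb at the closest point. In wild type in SL the order was TDH3 at 5680 ± 1677, ENO2 at 3203 ± 719, TPI1 at 2994 ± 684 and CDC19 at 2459 ± 429 (SD, n = 2 each), and the last 3 overlapped. In ppm1Δ it was TDH3 at 4568 ± 720, TPI1 at 2562 ± 193, ENO2 at 2294 ± 193 and CDC19 at 2262 ± 287, and the last 3 again overlapped in part. Only TDH3 thus stood clear of the other 3 in each of these 3 groups.

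Ranks by signal per kb within a library do not depend on how the library was scaled. Among the 731 peaks, rank 1 being the highest, ENO2 stood at 59 in both SL libraries, at 270 and 242 in ppm1Δ, at 377 in S412A, and at 527 and 514 in wild-type YPL. TDH3 stood at 4 in both SL libraries, at 5 in both ppm1Δ libraries, at 24 in S412A, and at 57 and 50 in wild-type YPL. TPI1 stood at 70 and 76 in SL, at 149 and 105 in ppm1Δ, at 122 in S412A, and at 488 and 358 in wild-type YPL. CDC19 stood at 158 and 169 in SL, at 252 and 317 in ppm1Δ, at 402 in S412A, and at 510 and 533 in wild-type YPL. All 4 peaks ranked higher in every library of the other groups than in either wild-type YPL library. In S412A, where 82.4% of all peaks were below both wild-type YPL libraries, this included peaks whose signal was no higher than in wild type. The ppm1Δ and wild-type YPL libraries chose these peaks, so their lower ranks in wild-type YPL are in part built in. How many of the 731 peaks share this order of ranks was not counted. The 2 SL libraries had nearly the same ranks, although the first had more signal.

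**Figure D2:**
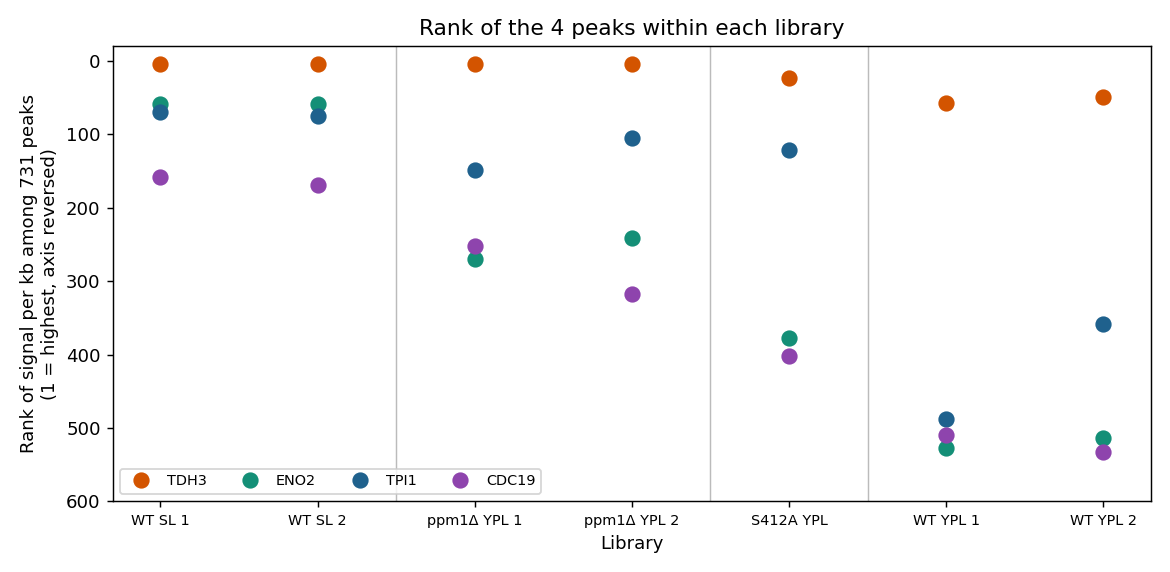
Rank of the signal per kb of the 4 peaks among the 731 peaks of each library, with rank 1 the highest and the axis reversed. TDH3 is at 4 to 57 throughout, and ENO2 stands at 59 in both SL libraries and at 514 and 527 in wild-type YPL.

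The first comparison asks how Rph1 signal at these peaks differed after 1 h in SL. All 4 peaks rose, in a comparison in which 23.3% of the 731 peaks were called higher and 36.7% lower. The ENO2 peak had a signal of 11519 and 8361 in SL, against 5381 and 5656 in YPL, a rise of 1.78-fold (log2 0.83, SE 0.17, limma adjusted p = 7.6e-06). The TDH3 peak had 19037 and 12462 in SL, against 8684 and 9717 in YPL, a rise of 1.68-fold (log2 0.75, SE 0.20, limma adjusted p = 5.1e-04). Both SL libraries were above both YPL libraries at these peaks.

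The TPI1 peak had 6980 and 5039 in SL, against 3769 and 4447 in YPL, a rise of 1.45-fold (log2 0.53, SE 0.14, limma adjusted p = 4.4e-04). The CDC19 peak had 9186 and 7167 in SL, against 5918 and 5740 in YPL, a rise of 1.39-fold (log2 0.48, SE 0.17, limma adjusted p = 0.0117). The 4 rises ranked 41 (ENO2), 51 (TDH3), 90 (TPI1) and 107 (CDC19) among the 731 differences, so other peaks rose more. The median log2 difference was 0.64 over the 4 peaks and -0.09 over all 731. Both SL libraries lay above both YPL libraries at all 4 peaks, as they did at 33.4% of all peaks. The wild-type YPL libraries also entered the comparison that chose these peaks, so a chance low value there would raise both differences, and the rise in SL is not independent of the choice.

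Fits took the spread at each peak from a trend with signal over all peaks, with a median SD of 0.14 on the log2 scale. The fitted SD, equal here to the SE above, was 0.17 at CDC19, 0.17 at ENO2, 0.14 at TPI1 and 0.20 at TDH3. The SD between replicates at these peaks was larger, 0.18 at CDC19, 0.20 at ENO2, 0.22 at TPI1 and 0.29 at TDH3. With 2 libraries a group, an exact two-sided permutation test of a single peak cannot give a p below 0.333. ENO2 passed whichever library was left out (limma adjusted p of at most 0.017). Without the first SL library the TDH3 rise was 0.44 (adjusted p = 0.0206), the TPI1 rise was 0.30 (adjusted p = 0.0509) and the CDC19 rise 0.30 (adjusted p = 0.0803) on the log2 scale in limma. Without the first wild-type YPL library only ENO2 passed, with limma adjusted p-values of 0.0831 at TDH3, 0.13 at TPI1 and 0.143 at CDC19, and without the second CDC19 did not pass (adjusted p = 0.204). On libraries centred on their median peak 244 of the 731 peaks were called higher and 300 lower, and all 4 passed as higher. Their log2 rises were 0.81 at TDH3, 0.89 at ENO2, 0.60 at TPI1 and 0.54 at CDC19 (limma adjusted p of at most 4.1e-05). Without the first SL library the rises on centred libraries were 0.61 at TDH3, 0.77 at ENO2, 0.47 at TPI1 and 0.47 at CDC19. That alternative was chosen after seeing the data, and centred libraries were not fitted with a wild-type YPL library left out.

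Ratios between the peaks of a library showed which of them changed more. The ratio of ENO2 to CDC19 per kb was 1.34 and 1.25 in SL, against 0.974 and 1.06 in wild-type YPL. ENO2 to TPI1 was 1.07 and 1.07 in SL, against 0.924 and 0.823 in YPL. The SL libraries were higher than the YPL libraries in both ratios, with no overlap, so ENO2 was higher relative to CDC19 and TPI1 in SL. TDH3 to TPI1 was 1.97 and 1.79 in SL, against 1.67 and 1.58 in YPL. TDH3 to CDC19 was 2.48 and 2.08 in SL, against 1.76 and 2.03 in YPL. These 2 ratios did not overlap either, but TDH3 to CDC19 came as close as 2.08 against 2.03, a narrower gap than between the replicates of either group. TPI1 to CDC19 was 1.26 and 1.16 in SL, against 1.06 and 1.28 in YPL, and these ranges overlapped. How often other pairs of peaks separate in this way was not counted. TDH3 to ENO2 was 1.85 and 1.67 in SL, against 1.81 and 1.92 in YPL, and these ranges overlapped. In ppm1Δ the ENO2 to CDC19 ratio was 0.986 and 1.05 and the ENO2 to TPI1 ratio 0.901 and 0.890, within the wild-type YPL ranges. TDH3 to TPI1 was 1.88 and 1.67 in ppm1Δ, above wild-type YPL by 1.674 against 1.668 at the closest point. TDH3 to ENO2 was 2.09 and 1.88 and TDH3 to CDC19 was 2.06 and 1.97 in ppm1Δ, and both overlapped with wild-type YPL.

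The second comparison sets ppm1Δ against wild type in YPL, and its values chose the peaks. The TDH3 peak had 14078 and 11256 in ppm1Δ, against 8684 and 9717 in wild type, a ratio of 1.37 (log2 0.45). The ENO2 peak had 7541 and 6695 in ppm1Δ, against 5381 and 5656 in wild type, a ratio of 1.29 (log2 0.37). The CDC19 peak had 8198 and 6846 in ppm1Δ, against 5918 and 5740 in wild type, a ratio of 1.29 (log2 0.36). The TPI1 peak had 5415 and 4868 in ppm1Δ, against 3769 and 4447 in wild type, a ratio of 1.25 (log2 0.33). Both ppm1Δ libraries were above both wild-type libraries at all 4, which held at 16.6% of the 731 peaks.

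These were the 4 largest differences in the direction of ppm1Δ over all 731 peaks, where the median was -0.01. Recentred on the median peak they were log2 0.47 at TDH3, 0.38 at ENO2, 0.38 at CDC19 and 0.34 at TPI1. In log2 terms library pairs ran from 0.13 to 0.52 at TPI1 and from 0.21 to 0.70 at TDH3. With rises ordered here by limma p, for description only, the next peak after the 4 lay on chromosome IV from 507087 to 510020. Its signal was 9082 and 7436 in ppm1Δ, against 6489 and 6782 in wild type in YPL (log2 0.31), close to the 0.33 of TPI1. That peak did not share the difference in SL, where it had 7764 and 6031, a log2 difference of 0.04 (limma adjusted p = 0.83).

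The ppm1Δ and SL values of the 4 peaks can be set side by side, although the same wild-type YPL libraries stand under both differences. The log2 difference from wild type in YPL was 0.37 in ppm1Δ and 0.83 in SL at ENO2, 0.45 and 0.75 at TDH3, 0.33 and 0.53 at TPI1, and 0.36 and 0.48 at CDC19. As deposited, the ppm1Δ libraries lay below both SL libraries at ENO2, and overlapped with the SL libraries at TDH3, TPI1 and CDC19. As ratios to the median peak per kb, both ppm1Δ libraries were below both SL libraries at all 4 peaks. At TDH3 the ratios were 2.27 and 2.04 in ppm1Δ, against 3.18 and 2.47 in SL. At ENO2 they were 1.09 and 1.08, against 1.72 and 1.48. At TPI1 they were 1.21 and 1.22, against 1.61 and 1.38. At CDC19 they were 1.10 and 1.03, against 1.28 and 1.18. How many of all peaks do so was not counted.

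**Figure D3:**
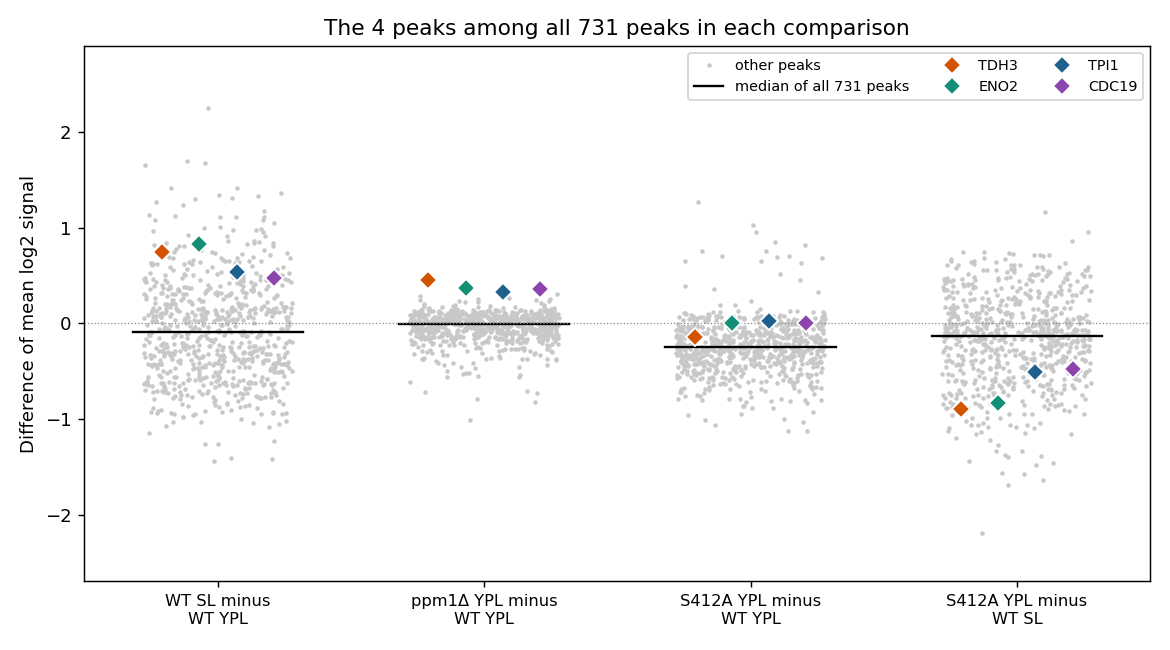
Difference of mean log2 signal for every peak in 4 comparisons, with the 4 glycolytic gene peaks as coloured diamonds and the median of all 731 peaks as a black line. The diamonds are above the median in SL and ppm1Δ against wild type in YPL, near 0 in S412A against wild type in YPL, and below the median in S412A against wild type in SL; the ppm1Δ column chose the peaks.

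The third comparison sets S412A in YPL, from 1 library, against wild type in YPL. None of the 4 peaks passed in limma, adjusted or at an unadjusted p under 0.05, where 1.92% of peaks were called higher and 17.5% lower after adjustment and 35.2% had an unadjusted p under 0.05. The ENO2 peak had 5510 in S412A, against 5381 and 5656 in wild type (log2 -0.00, 95% interval -0.42 to 0.41). The CDC19 peak had 5830 in S412A, against 5918 and 5740 in wild type (log2 0.00, interval -0.41 to 0.41). The TPI1 peak had 4158 in S412A, against 3769 and 4447 in wild type (log2 0.02, interval -0.31 to 0.36). At TDH3 the S412A library held 8291, against 8684 and 9717 in wild type (log2 -0.15, interval -0.62 to 0.32). The intervals take the spread of S412A from the other groups. They include changes as large as the ppm1Δ difference at 3 of the 4 peaks, all but TDH3. The ppm1Δ difference chose the peaks, so the yardstick is itself a selected value.

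Over all peaks the S412A library was lower than wild type in YPL, with a median log2 difference of -0.25. Relative to the median peak, the 4 peaks were above wild type in YPL by log2 0.09 at TDH3, 0.24 at ENO2, 0.26 at TPI1 and 0.24 at CDC19, and none passed (limma adjusted p = 0.136 to 0.691). With quantile normalization ENO2 (log2 0.27, limma adjusted p = 0.0348) and CDC19 (0.32, adjusted p = 0.0265) passed as higher. This comparison, too, rests on the wild-type YPL libraries that helped choose the peaks, and on 1 library of S412A. With the scaling, TDH3 thus moved from below wild type to above it, and ENO2, TPI1 and CDC19 moved from near 0 to above it. Over all peaks lower calls outnumbered higher calls under each scaling. The split was 14 higher and 128 lower as deposited, 41 and 83 on median-centred libraries, and 68 and 90 with quantile normalization.

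S412A in YPL was also set against wild type in SL, and in that comparison both the medium and the RPH1 allele differ. Its log2 differences use none of the libraries that chose the peaks, but its p-values take their spread in part from those libraries, and S412A, with 1 library, adds no spread of its own. TDH3, ENO2 and TPI1 passed as lower in the single S412A library, where 28.5% of peaks were called lower and 10.5% higher. The TDH3 peak had 8291 in S412A, against 19037 and 12462 in SL (log2 -0.89, SE 0.24, limma adjusted p = 0.0013). The ENO2 peak had 5510 in S412A, against 11519 and 8361 in SL (log2 -0.83, SE 0.21, limma adjusted p = 6.5e-04). The TPI1 peak had 4158 in S412A, against 6980 and 5039 in SL (log2 -0.51, SE 0.17, limma adjusted p = 0.01). The CDC19 peak had 5830 in S412A, against 9186 and 7167 in SL, and did not pass (log2 -0.48, SE 0.21, limma adjusted p = 0.0564).

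The S412A library was below both SL libraries at all 4 peaks, as it was at 54.0% of all peaks. The median log2 difference was -0.67 over the 4 peaks and -0.14 over all 731. TDH3 and ENO2 passed whichever library was left out (limma adjusted p of at most 0.0467), whereas TPI1 did not pass when any library other than the second SL library was omitted (adjusted p = 0.0635 to 0.178), with a log2 difference of -0.28 without the first SL library. On median-centred libraries all 4 passed, with log2 differences of -0.72 at TDH3, -0.66 at ENO2, -0.34 at TPI1 and -0.30 at CDC19 (limma adjusted p of at most 0.0239). With quantile normalization they were -0.39 at TDH3, -0.53 at ENO2, -0.31 at TPI1 and -0.17 at CDC19, where CDC19 did not pass (limma adjusted p = 0.0919). Over all peaks the split was 77 higher and 208 lower as deposited, 198 and 204 on median-centred libraries, and 228 and 214 with quantile normalization.

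The nearest peaks on each side did not share these values throughout. Around ENO2 both neighbours fell in SL, the peak on VIII from 410683 to 412093 by log2 -0.73 (limma adjusted p = 5.7e-08) and the peak from 503931 to 505868 by -0.81 (adjusted p = 1.1e-09), at gaps of 38.6 and 50.2 kb. Around TPI1 the peak on IV from 542215 to 545036 had a log2 difference of 0.01 in SL that did not pass (limma adjusted p = 0.969), and the peak from 568380 to 569629 fell (-0.32, limma adjusted p = 0.0233). These lay 10.2 and 11.2 kb away. The nearest neighbour of TDH3, on VII from 875897 to 877135 and 4.88 kb away, fell in SL (-0.33, limma adjusted p = 0.0192), while the peak from 903823 to 909235, 19.0 kb away on the other side, rose (0.59, limma adjusted p = 0.0052).

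Around CDC19 the peak on I from 129005 to 132592, 55.2 kb away, rose in SL by log2 1.08 (limma adjusted p = 8.8e-10), against 0.48 at CDC19 itself, and the peak from 42195 to 45941, 24.6 kb away, did not pass (0.34, limma adjusted p = 0.104). In ppm1Δ the 8 neighbours had log2 differences of -0.21 to 0.09 from wild type in YPL, below all 4 glycolytic gene peaks, which had been chosen for theirs. In the single S412A library the 8 neighbours had log2 differences of -0.52 to 0.13 from wild type in YPL, where the median over all peaks was -0.25. The VIII peak from 410683 to 412093 was at -0.43.

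**Figure D4:**
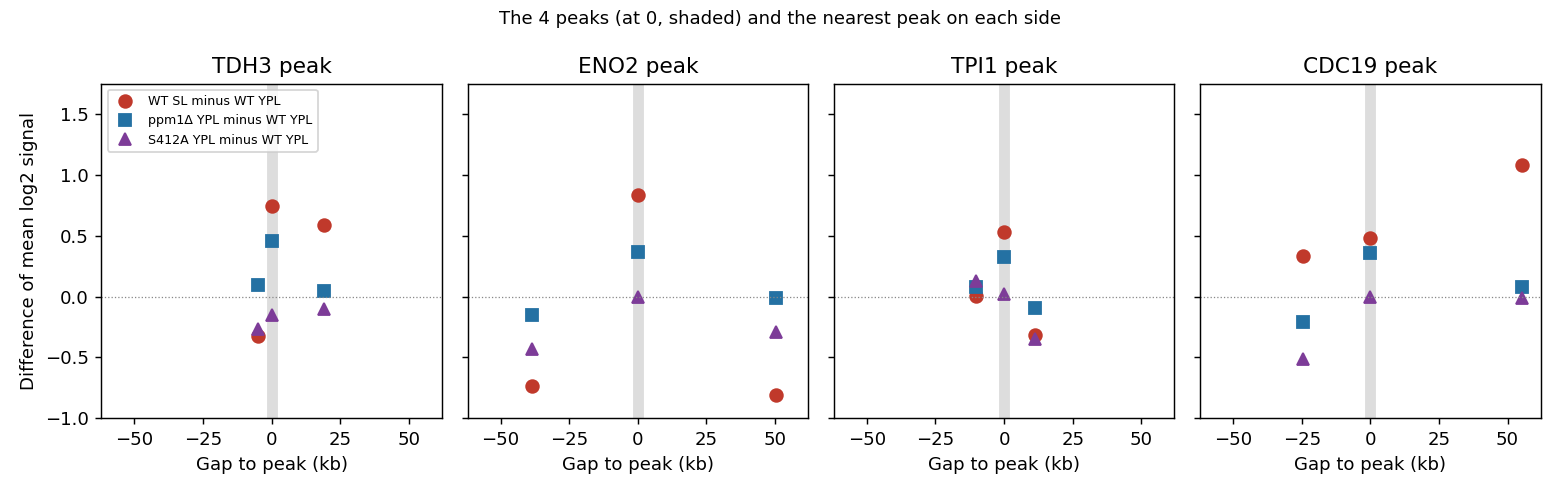
Difference of mean log2 signal from wild type in YPL at each of the 4 peaks (at 0, shaded) and at the nearest peak on each side, placed by the gap in kb. Both neighbours of ENO2 are below 0 in SL at -0.73 and -0.81, while ENO2 is at 0.83.

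Pearson's r of log2 signal over the 7 libraries was 0.93 to 0.98 for the 6 pairs of peaks. These libraries come in 4 groups and share their depth and scaling, and the ppm1Δ and wild-type YPL libraries among them chose the 4 peaks, so likeness among the 4 is in part built in and the values are descriptions only. The other 727 peaks had a median r of 0.17 with the mean of the 4, and 59 of them were above 0.9.

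Most like the 4 was a peak on chromosome X from 336823 to 339562 (r = 0.99). It had a signal of 6226 and 5111 in SL, 5324 and 5041 in ppm1Δ, 4551 in S412A, and 4302 and 4537 in wild-type YPL. The SL and ppm1Δ libraries were above both wild-type YPL libraries there too. The log2 differences from wild type in YPL, 0.35 in SL and 0.23 in ppm1Δ, were smaller than at any of the 4. For ppm1Δ that holds at every other peak, since the 4 had the largest differences and were chosen for them. The next by likeness were VII from 507474 to 508717 (r = 0.97), III from 134304 to 139767 (r = 0.97), II from 611998 to 614302 (r = 0.97) and IV from 767876 to 770237 (r = 0.97). Their log2 differences were 0.31 to 0.74 in SL and 0.14 to 0.25 in ppm1Δ against wild type in YPL, and -0.17 to -0.02 in S412A against wild type in YPL. The III peak differed most among them in SL, with 21079 and 14985, against 10475 and 10847 in wild-type YPL. No gene was assigned to these 5 peaks. The R64 table places TDH1 and TDH2, the close copies of TDH3, on chromosome X, and whether the X peak covers either of them was not analysed here.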

How the data were processed

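The deposited table gives a signal value per peak and library, and no header or label states its unit. Reads were aligned with Bowtie2 to sacCer2, per the submitters' processing notes; no source used here names the peak caller, the read filters, the merging of peaks or any use of input. All values of a library were whole multiples of 1 step (100% within 0.001 reads) equal to 22000000 divided by a whole number, which was taken as the library total. This reading rests on the values alone, so no count model was used.

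The test was that of limma 3.58.1 (R 4.3.3) on log2 signal with a pseudocount of 0, in a single fit to the 7 libraries by group alone (3 residual degrees of freedom, eBayes with trend, spread taken wholly from the trend). P-values were adjusted over all 731 peaks by the Benjamini-Hochberg method at 0.05 and measure only the spread between these libraries, which may be technical. The fit was tested on simulated data. SDs of signal per kb are on the signal scale, fitted SDs and the SDs between replicates set beside them are on the log2 scale, and folds are ratios of geometric means.

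The 4 peaks, the comparisons and the lists were chosen with earlier results of these data known. Named peaks are the 4, their nearest neighbours, the next in the ppm1Δ order, and the 5 most correlated with the mean of the 4. Other glycolytic genes and promoter motifs were not analysed here, as the gene table is of build R64 and the peaks of sacCer2. Alternatives covered the pseudocount, scaling, peak filter, spread, left-out libraries and a replicate block.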

Additional observations from a re-analysis of the deposited data

How the results depend on the processing

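With wild type in SL against wild type in YPL, 438 peaks passed, 204 when only the 365 peaks highest in mean signal were tested, which leaves fewer to pass, and 221 to 451 with 1 library left out. Of the 4 peaks 4 passed, and 1 to 4 with 1 library left out. All 4 passed with a pseudocount of 10% of the median, median centring, quantile normalization, the 365 highest peaks, a spread without trend and a fit of these 2 groups only. Of all peaks, 544 passed with median centring and 556 with quantile normalization. For S412A against wild type in YPL, 142 peaks passed, 91 among the 365 highest, 0 to 283 with 1 library left out, and 281 or 280 on median-centred libraries without the first or second SL library, an alternative chosen after seeing the data. Of the 4 peaks 0 passed, against 2 with quantile normalization and 3 on median-centred libraries with either the first or the second SL library left out, where ENO2 turned to log2 0.24; it was 0.27 with quantile normalization. The cause was not tested. For S412A against wild type in SL, 285 peaks passed, 442 with quantile normalization, 153 among the 365 highest, 487 on median-centred libraries without the second SL library, and 180 to 374 with 1 library left out, and 2 to 4 of the 4 peaks then passed. The median log2 difference of the 4 peaks between ppm1Δ and wild type in YPL was 0.36, and 0.26 to 0.47 with 1 library left out.

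Replicates share numbers in the titles only. Differences between replicates 1 and 2 correlated over peaks at -0.33 (SL and YPL), -0.44 (ppm1Δ and YPL) and 0.14 (ppm1Δ and SL). Any difference between 2 libraries enters these values, so they cannot tell whether libraries of the same number were handled together. With the replicate block 419 peaks passed in SL against YPL, 4 of the 4 among them, and the ppm1Δ median stayed at 0.36. No block could be fitted for S412A, whose title has no number. A count test was not run. Read as scaled reads, the 4 peaks had counting errors of at most 1.94%, which cover the counting of reads only.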
